A study of Rattus norvegicus with 8 samples.

Results

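The genes of fast skeletal muscle fibers were followed in the RNA of rat Achilles tendons, taken at rest or directly after a run. The 10 genes were chosen by name as a set that marks fast fibers: Myh1, Myh4, Mylpf, Tnni2, Tnnt3, Tnnc2, Actn3, Casq1, Ckm and Pygm. A row was found by gene symbol for 9 of the 10 among the 15590 genes of the table, and the expression of Myh4 was not analysed here. All 9 passed the filter on low values, which left 13863 genes to be tested.

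The animals were wild-type (WT) male Sprague-Dawley (SD) rats, 8 to 10 weeks old, without any transgene or drug. Rats of the 0 h p.r. (post-running) group ran uphill on a treadmill for 1 h and were killed at once, while naïve control (NC) rats did not run. Polyadenylated RNA of Achilles tendon tissue of the right leg was sequenced in 4 libraries per group. The comparison asks how gene expression in the tendon differs after a single bout of running. Effects of the run and of the time of collection cannot be told apart in it. The libraries held between 11350560 and 17897056 reads, recovered from the steps of the deposited FPKM values (mapped fragments relative to transcript length and library size). Each FPKM value of the 9 genes rested on at least 747 reads, so that counting error was small beside the spread between libraries. The labels name a group and a replicate number for each library, no batch, and not which rat gave it, so that the p-values below measure the spread between these libraries.

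Skeletal muscle fibers differ in how fast they contract, and fast and slow fibers build the same machine from different members of the same gene families. Myosin heavy chains pull on actin, the troponins couple that pull to calcium, calsequestrin holds calcium inside the fiber, and fast fibers draw quick energy from creatine phosphate and glycogen. Tendon is a tissue of collagen made by fibroblast-like tenocytes and joins muscle to bone. The defining tendon markers Tnmd, Scx and Mkx were detected in every library, and the summed level of 12 tendon markers lay between 8160.4 and 13966 FPKM in NC and between 11473 and 23252 FPKM in 0 h p.r.

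All 9 genes were highest in the same library, 0 h p.r. replicate 1, and second highest in 0 h p.r. replicate 3. The lowest library was 0 h p.r. replicate 4 for 8 of the 9 genes, and NC replicate 1 for Actn3. Except for the lowest value of Actn3, the highest and the lowest levels were thus both found after running, with the 4 NC libraries in between. None of the 9 genes was found to differ between the groups (limma, fold of at least 2 and adjusted p under 0.05), against 2.70% of all genes tested and 1.80% that were higher after running. The paper, which used a count model, lists Pygm among the differentially expressed genes of its enriched processes at 0 h p.r. Its lists also hold Casq2, Csrp3, Tpm1, Jph2 and Myog, counted below as not passing. They hold Mmp13 too, which the paper gives as short of its adjusted threshold. What set the 9 genes apart from most others was their spread between the tendons of a group. Wide spread was also found among the other fast-fiber, slow-fiber and shared muscle genes below.

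**Figure D1:**
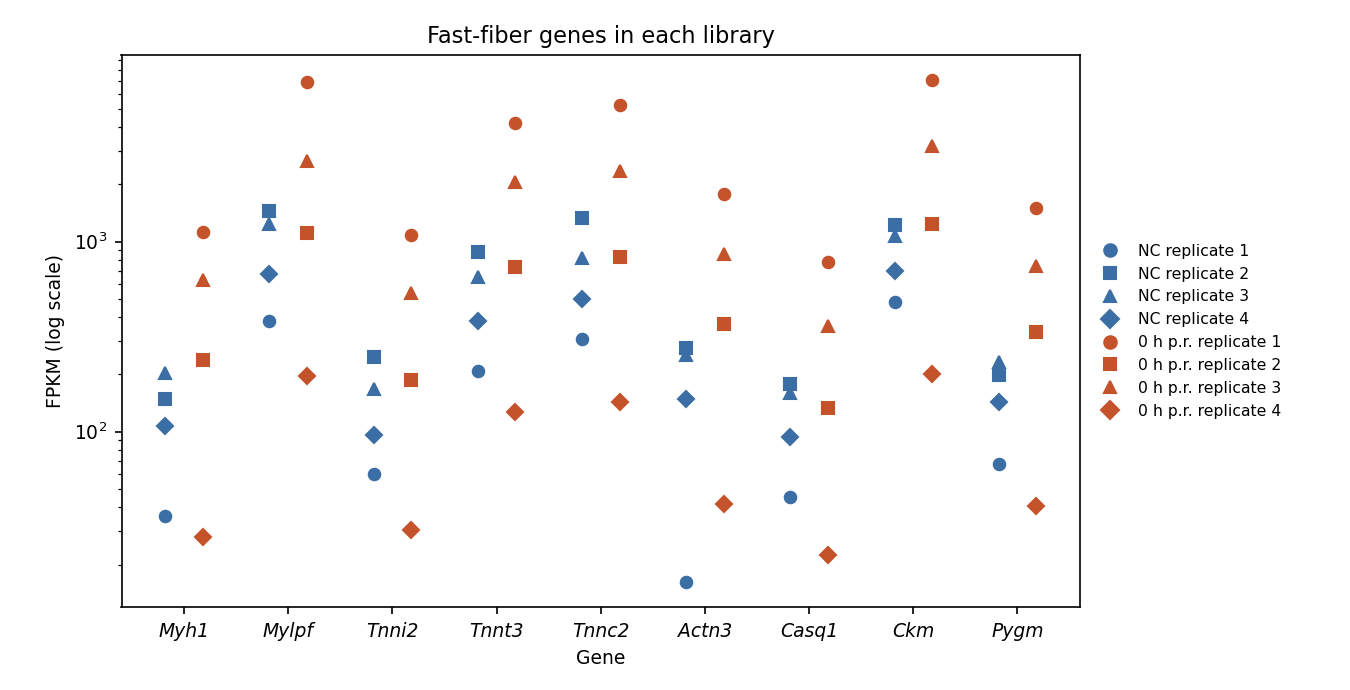
FPKM of the 9 fast-fiber genes (log axis) in each of the 4 NC (blue) and 4 0 h p.r. (orange) libraries, with 1 symbol per replicate number. The circle of 0 h p.r. replicate 1 tops every gene, from 778 FPKM for Casq1 to 7045 FPKM for Ckm, and the diamond of 0 h p.r. replicate 4 lies at or near the bottom of each column.

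The members of the motor came first. Myh1, a myosin heavy chain of fast fibers, was measured at 36.2, 149, 203 and 107 FPKM in NC replicates 1 to 4, and at 1129, 238, 630.5 and 28.1 FPKM in 0 h p.r. replicates 1 to 4. Of the run libraries, 3 stood above every control and 1 stood below all of them, so that the groups overlapped. The log2 change was 1.34 (SE 1.05, 95% interval -1.02 to 3.70, limma adjusted p = 0.508). Near-identical myosin heavy chain genes lie next to Myh1 on the chromosome, reads could have been divided between them, and Myh1 is also an older name of Myh2 in RefSeq, a neighbor not analysed here. The value of Myh1, and which of these chains its row stands for, are uncertain to that extent.

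Mylpf, the regulatory light chain of fast myosin (listed as Myl11 by RefSeq), was measured at 381, 1446, 1240.2 and 676 FPKM in NC replicates 1 to 4. After the run it was at 6860.4, 1106, 2642 and 195 FPKM in replicates 1 to 4. Replicates 1 and 3 exceeded the highest control, replicate 2 fell among the controls, and replicate 4 lay under the lowest. The log2 change was 0.77 (SE 0.97, 95% interval -1.41 to 2.96, limma adjusted p = 0.704).

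The thin filament was represented by the troponin subunits of fast fibers. Tnni2, the subunit that blocks the pull of myosin at rest, was measured at 59.9, 247, 167 and 95.9 FPKM in NC and at 1081, 186, 538 and 30.4 FPKM in 0 h p.r. (replicates 1 to 4 in both). Tnnt3, which holds the troponin complex on tropomyosin, was measured at 209.7, 881, 650.3 and 384 FPKM in NC and at 4183, 731, 2044 and 127 FPKM after the run. Tnnc2, the subunit that binds calcium, was measured at 306, 1325, 816 and 497 FPKM in NC and at 5205, 827, 2344 and 143 FPKM after the run. In all 3 subunits the order of the 8 libraries was the same, with 0 h p.r. replicates 1 and 3 above the controls, replicate 2 among them and replicate 4 below. Their log2 changes were 0.95 (SE 0.98) for Tnni2, 1.03 (SE 0.97) for Tnnt3 and 0.78 (SE 0.99) for Tnnc2, with adjusted p of 0.634, 0.596 and 0.705 in limma.

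Actn3, the alpha-actinin that anchors actin at the Z disc of fast fibers, had the widest range of the 9 genes, 109.6-fold over the 8 libraries. It was measured at 16.2, 277, 255 and 149 FPKM in NC replicates 1 to 4. After the run it was at 1774, 367, 855 and 41.5 FPKM. The values of 3 run libraries were above all controls, and the lowest value of the series was that of NC replicate 1. Its log2 change was 1.76 (SE 1.23, 95% interval -1.0 to 4.53, limma adjusted p = 0.450), the largest of the 9, with the largest SE.

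Casq1, the calcium-binding protein of the sarcoplasmic reticulum in fast fibers, was measured at 45.2, 178, 161 and 93.3 FPKM in NC and at 778, 134, 361 and 22.4 FPKM in 0 h p.r. (replicates 1 to 4). Its groups overlapped, with 2 run libraries above all controls and 1 below. Its log2 change was 0.70 (SE 0.97, 95% interval -1.48 to 2.89, limma adjusted p = 0.734), and it turned to -0.024 when 0 h p.r. replicate 1 was left out.

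The last pair supplies energy. Ckm, the muscle creatine kinase, was measured at 480.0, 1225, 1065 and 702 FPKM in NC and at 7045, 1237, 3165 and 200.1 FPKM after the run. Among the controls it was the steadiest of the 9 genes, with a 2.55-fold range, and after the run its range was 35.2-fold. Pygm, the glycogen phosphorylase of muscle, was measured at 68.0, 198, 233 and 144 FPKM in NC and at 1493, 335, 748 and 40.6 FPKM after the run. For both genes 3 run libraries exceeded every control, for Ckm only narrowly in replicate 2, and replicate 4 was below every control. The log2 changes were 0.91 (SE 0.94, adjusted p = 0.635) for Ckm and 1.27 (SE 0.97, adjusted p = 0.498) for Pygm in limma.

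In the fit over all genes, 0 of the 9 members passed both thresholds, 0 had an unadjusted p under 0.05 (22.6% of all genes tested did), and 0 passed with limma voom on the recovered reads. All 9 log2 changes were above 0, with a median of 0.95 against -0.0014 over all genes tested, of which 49.9% were above 0. The 9 values are not independent, since the same libraries set all of them. Groups without overlap were found for 0 of the 9 genes, against 15.6% of all genes tested. Leaving out 0 h p.r. replicate 4, the library with the lowest values, raised the median to 1.94 and put 1 gene, Pygm, past both thresholds (log2 change 2.30, limma adjusted p = 0.0426), where 3.67% of all genes passed. Leaving out 0 h p.r. replicate 1 lowered the median to 0.23, and the count remained 0 without any other single library, or without 0 h p.r. replicates 1 and 4 together (median 1.35).

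**Figure D2:**
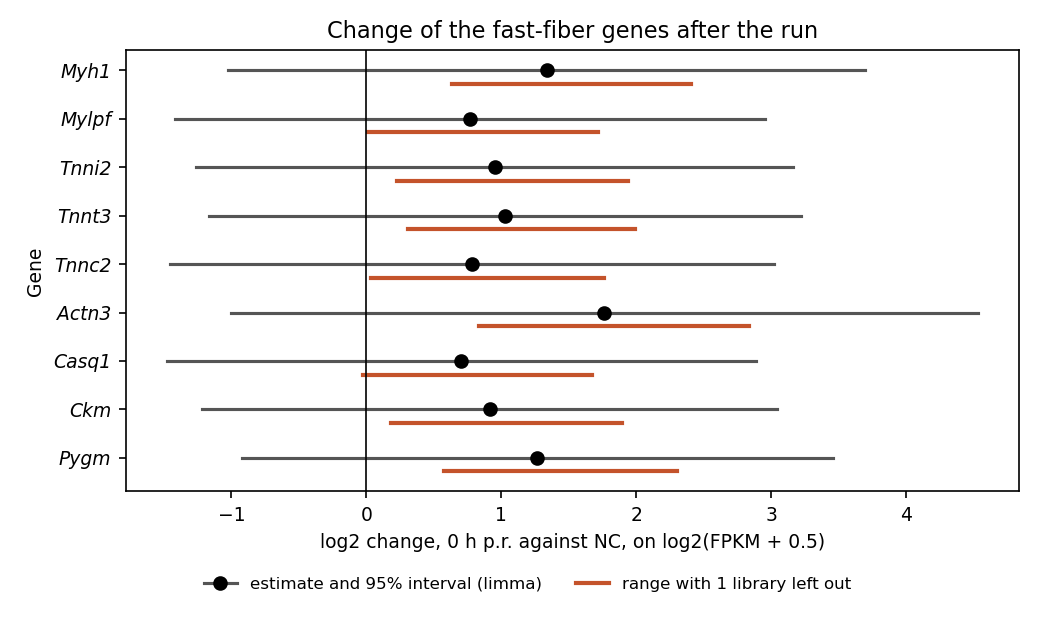
Log2 change of each fast-fiber gene between 0 h p.r. and NC (black point) with its 95% interval from limma (gray line) and the range of the estimate when each library in turn is left out (orange line). The 9 points lie between 0.70 and 1.76, and all 9 intervals include 0.

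The spread itself was then compared between the groups. The SD of log2(FPKM + 0.5) among NC libraries had a median of 0.90 over the 9 genes, against 0.25 over all genes tested. Among 0 h p.r. libraries it was 2.23, against 0.23 over all genes, and each of the 9 lay above 1.81, the 99th percentile of all genes tested. The SD after running was at least 2 times that at rest for 8 of the 9 genes, against 16.5% of all genes. Actn3 was the exception, with an SD of 1.90 in NC and 2.34 in 0 h p.r. The count of 8 rested on 1 library: without 0 h p.r. replicate 4 it was 1 of 9, and without any other library it was 7 to 9. No test was made of this difference in spread, which compares 4 libraries with 4.

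**Figure D3:**
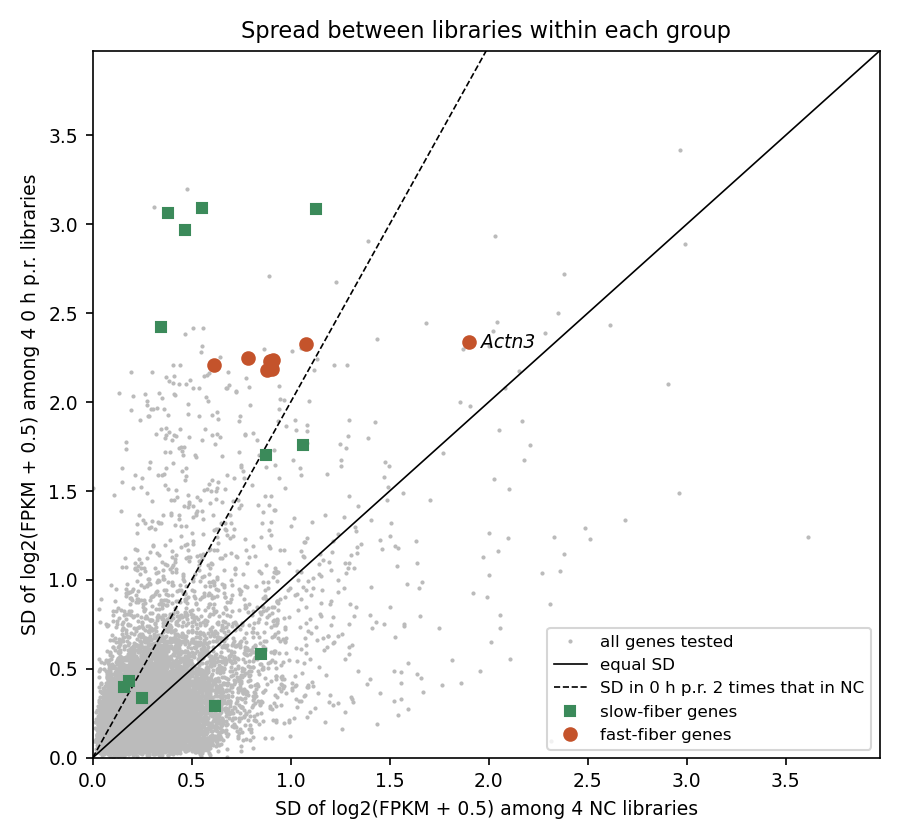
SD of log2(FPKM + 0.5) among the 4 NC libraries (x) and the 4 0 h p.r. libraries (y) for all 13863 genes tested (gray), with the fast-fiber genes (orange circles) and slow-fiber genes (green squares); the dashed line marks an SD in 0 h p.r. of 2 times that in NC. Of the 9 orange points 8 lie above the dashed line, and Actn3 lies to the right of it.

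In reads, the 9 genes took 0.272%, 0.840%, 1.00% and 0.613% of NC replicates 1 to 4, and 4.98%, 1.13%, 2.75% and 0.154% of 0 h p.r. replicates 1 to 4. In RNA of whole tissue, fewer muscle fibers in a sample and less of these transcripts per fiber cannot be told apart. The library with the lowest member levels, 0 h p.r. replicate 4, had the highest summed levels of the 12 tendon (23252 FPKM), 10 bone (2183 FPKM) and 8 cartilage markers (4519 FPKM) of all libraries. Each sum rested mostly on 1 gene there, Dcn at 14777, Spp1 at 1983 and Chad at 4132 FPKM, and the defining tendon markers Tnmd (225 FPKM), Scx (32.1 FPKM) and Mkx (7.82 FPKM) were not highest in that library. The summed level of the adipocyte markers was lowest of all in 0 h p.r. replicate 1 (1086 FPKM), where the members were highest, and highest in NC replicate 1 (6709 FPKM), where all 9 members had their lowest control value. The part of these tissues in the spread of the fast-fiber genes was not tested.

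The 9 genes moved in near-fixed proportion to each other. Pearson's r of log2(FPKM + 0.5) over the 8 libraries was between 0.907 and 0.999 for the 36 pairs, which share the libraries and the scaling and are given as a description. The closest pair was Tnni2 and Tnnt3, and the loosest was Actn3 and Ckm. Relative to Mylpf in the same library, Casq1 stayed between 0.113 and 0.138 and Tnnc2 between 0.658 and 0.916, while the level of Mylpf itself ranged 35.1-fold. The ratio to Mylpf spanned 1.48-fold for Tnnt3, 1.49-fold for Ckm, 1.51-fold for Tnni2, 2.21-fold for Pygm and 2.51-fold for Myh1. Actn3 kept this proportion least: it was 0.0425 of Mylpf in NC replicate 1 and between 0.192 and 0.332 of Mylpf in the other 7 libraries.

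**Figure D4:**
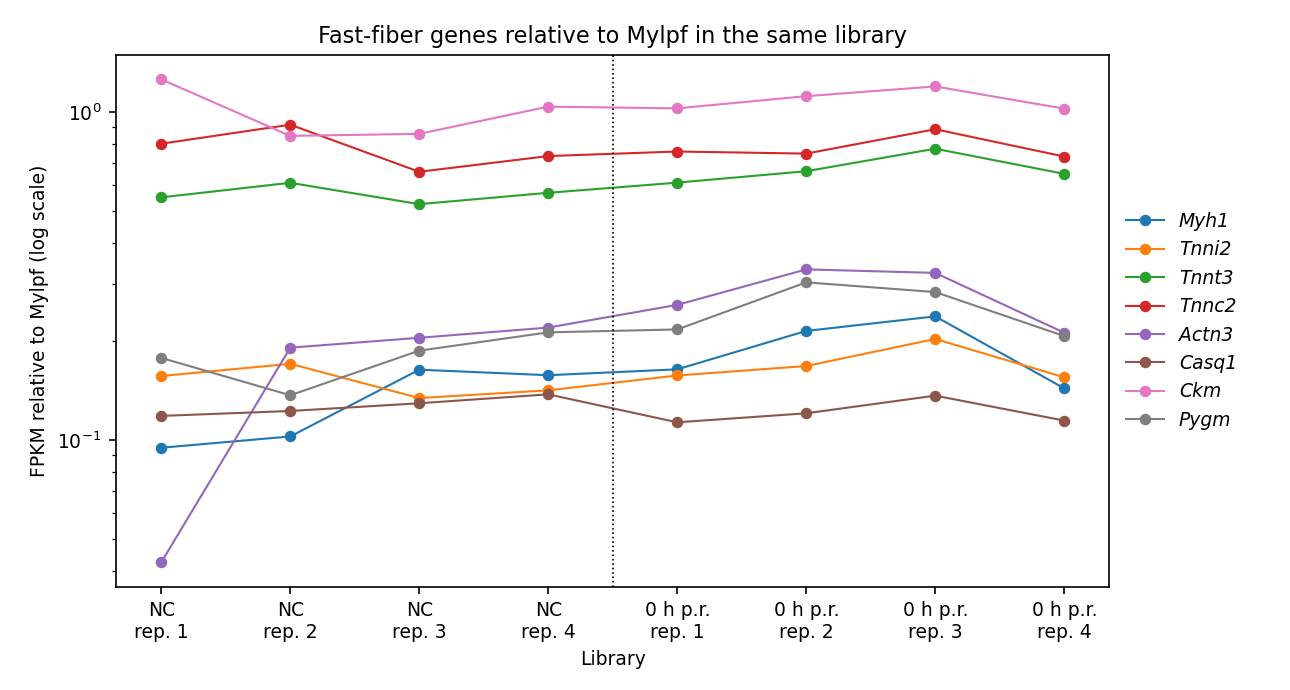
FPKM of 8 fast-fiber genes divided by that of Mylpf in the same library (log axis), for the 4 NC libraries on the left of the dotted line and the 4 0 h p.r. libraries on the right; lines only join the points of a gene. Casq1 spans 1.22-fold and Actn3 7.81-fold, the latter through the low point of NC replicate 1.

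The RefSeq sequence ahead of the starts of the 10 genes was examined for letters known as binding sites of muscle regulators. A promoter was found in RefSeq (build GRCr8) for 9 of the 10 genes, Myh4 included, and Tnnt3 was not matched. The 250 bases before the start were searched on both strands. The E box, bound by MyoD and related factors, was searched as CANNTG and in its CAGCTG form, which is part of the former, and as CACCTG. The TATA box was searched as TATAAA, and the MEF2 and CArG boxes by their usual consensus. CAGCTG was present in 5 of the 9 promoters (Myh4, Mylpf, Casq1, Ckm and Pygm) and in 12% of all 33469 promoters of that length. CANNTG was present in 7 of the 9 and in 65.5% of all, CACCTG in 3 and in 15.9%, TATAAA in 3 and in 12.9%. The MEF2 box was present in 2 of the 9, Myh1 and Myh4, where it overlaps a TATAAA match on the other strand, and in 2.96% of all promoters. The CArG box was present in Myh4 only among the 9, and in 1.5% of all promoters.

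Pygm held a pair of CAGCTG boxes, as did Ckm. Casq1 and Tnnc2 were named above for their near-fixed proportion to Mylpf, and Actn3 kept that proportion least. The sequences shown are those of Pygm, Casq1, Tnnc2 and Actn3. They lie at chr1:213119555-213119804 (+) for Pygm, chr13:87212711-87212960 (-) for Casq1, chr3:173935340-173935589 (-) for Tnnc2 and chr1:211604402-211604651 (-) for Actn3. Capitals mark matches of the E, TATA, MEF2 and CArG boxes on either strand.
Pygm: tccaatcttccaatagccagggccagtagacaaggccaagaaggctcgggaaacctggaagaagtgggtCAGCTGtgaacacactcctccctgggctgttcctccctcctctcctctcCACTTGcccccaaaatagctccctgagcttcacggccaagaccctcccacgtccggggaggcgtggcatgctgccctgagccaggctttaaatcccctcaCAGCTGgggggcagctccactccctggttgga
Casq1: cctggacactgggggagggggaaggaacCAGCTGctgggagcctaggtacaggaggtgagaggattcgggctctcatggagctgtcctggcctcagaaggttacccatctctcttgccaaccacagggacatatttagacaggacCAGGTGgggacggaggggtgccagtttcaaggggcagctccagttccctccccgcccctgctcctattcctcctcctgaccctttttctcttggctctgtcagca
Tnnc2: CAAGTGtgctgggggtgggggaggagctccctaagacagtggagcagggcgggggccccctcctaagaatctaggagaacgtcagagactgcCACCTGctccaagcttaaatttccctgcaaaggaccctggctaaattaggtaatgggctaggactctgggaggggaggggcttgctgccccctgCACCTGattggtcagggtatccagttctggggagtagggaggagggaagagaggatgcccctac
Actn3: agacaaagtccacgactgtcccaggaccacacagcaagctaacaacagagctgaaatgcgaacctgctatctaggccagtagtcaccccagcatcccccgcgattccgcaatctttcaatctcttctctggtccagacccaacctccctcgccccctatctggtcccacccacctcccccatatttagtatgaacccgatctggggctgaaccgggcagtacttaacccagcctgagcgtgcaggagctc

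In Pygm the CAGCTG boxes began 181 and 32 bases before the start. Casq1 held a single one at 222 bases and a CACCTG on the other strand at 105 bases, and Tnnc2 held CACCTG matches at 158 and 64 bases. Actn3 held none of the letters searched in this window. A match is a description of these letters and not a site in use, and its part in the levels was not tested.

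To ask whether fast fibers moved relative to slow ones, each fast gene was divided by its slow or shared counterpart within a library, for the 6 pairs of which both genes had a row. The ratio of Tnnt3 to Tnnt1, its counterpart in slow fibers, was 0.364, 2.69, 1.28 and 1.04 in NC replicates 1 to 4. After the run it was 14.5, 7.86, 1343 and 3.67. The groups did not overlap, and the mean log2 ratio was higher by 4.57 after the run (0.10 ± 1.19 to 4.67 ± 3.64, SD, n = 4 each, two-sided exact permutation p = 0.0286, adjusted over the 6 pairs 0.0686). A p of 0.0286 is the smallest that 4 against 4 libraries allow.

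Mylpf to Myl2, the slow regulatory light chain, gave ratios of 6.95, 44.4, 36.4 and 15.3 in NC. After the run they were 242, 182 and 58.4 in replicates 1, 2 and 4. In replicate 3 no read of Myl2 was found, and the ratio was at least 5419 with Myl2 set to 3 reads in that library. The groups did not overlap, and the mean log2 ratio was higher by 4.0 on the log2(FPKM + 0.5) scale (two-sided exact permutation p = 0.0286, adjusted 0.0686).

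Of the other pairs, Myh1 to Myh7, the heavy chain of slow fibers, gave 0.118, 2.43, 0.618 and 0.473 in NC and 7.02, 5.98, 1227 and 1.76 after the run. Tnni2 to Tnni1, the slow troponin I, gave 0.226, 1.94, 0.711 and 0.524 in NC and 7.23, 4.52, 807 and 1.91 after the run. Actn3 to Actn2, an alpha-actinin of all fibers, gave 0.107, 7.07, 1.89 and 1.62 in NC and 13.1, 12.6, 15.4 and 5.40 after the run. In each of these pairs the groups met only through NC replicate 2, which exceeded 0 h p.r. replicate 4, and the mean log2 ratio was higher after the run by 4.75, 4.34 and 3.10 (two-sided exact permutation p = 0.0571 and adjusted 0.0686 for each). Without 0 h p.r. replicate 3 the differences of Myh1 to Myh7 and Tnni2 to Tnni1 were 2.95 and 2.63, and without NC replicate 1 that of Actn3 to Actn2 was 1.94. Casq1 to Casq2, the calsequestrin of slow fibers and heart, gave 1.84, 20.7, 4.44 and 4.64 in NC and 43.5, 13.1, 51.8 and 2.94 after the run. Its groups overlapped widely, and the mean log2 difference was 1.67 (exact permutation p = 0.229, adjusted 0.229), with values of 1.14 (without 0 h p.r. replicate 3) to 2.51 (without 0 h p.r. replicate 4) when single libraries were left out.

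None of the 6 pairs passed an adjusted p of 0.05, while the difference was above 0 in all 6. With a smallest exact permutation p of 0.0286, a pair could pass the adjustment only if enough other pairs reached that p too. The adjusted p therefore does not measure the size of a pair's difference. Without 0 h p.r. replicate 4, 4 pairs passed (adjusted p = 0.0429 each, exact permutation): Myh1 to Myh7, Mylpf to Myl2, Tnni2 to Tnni1 and Tnnt3 to Tnnt1. With each of the other 7 libraries left out in turn, none passed.

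**Figure D5:**
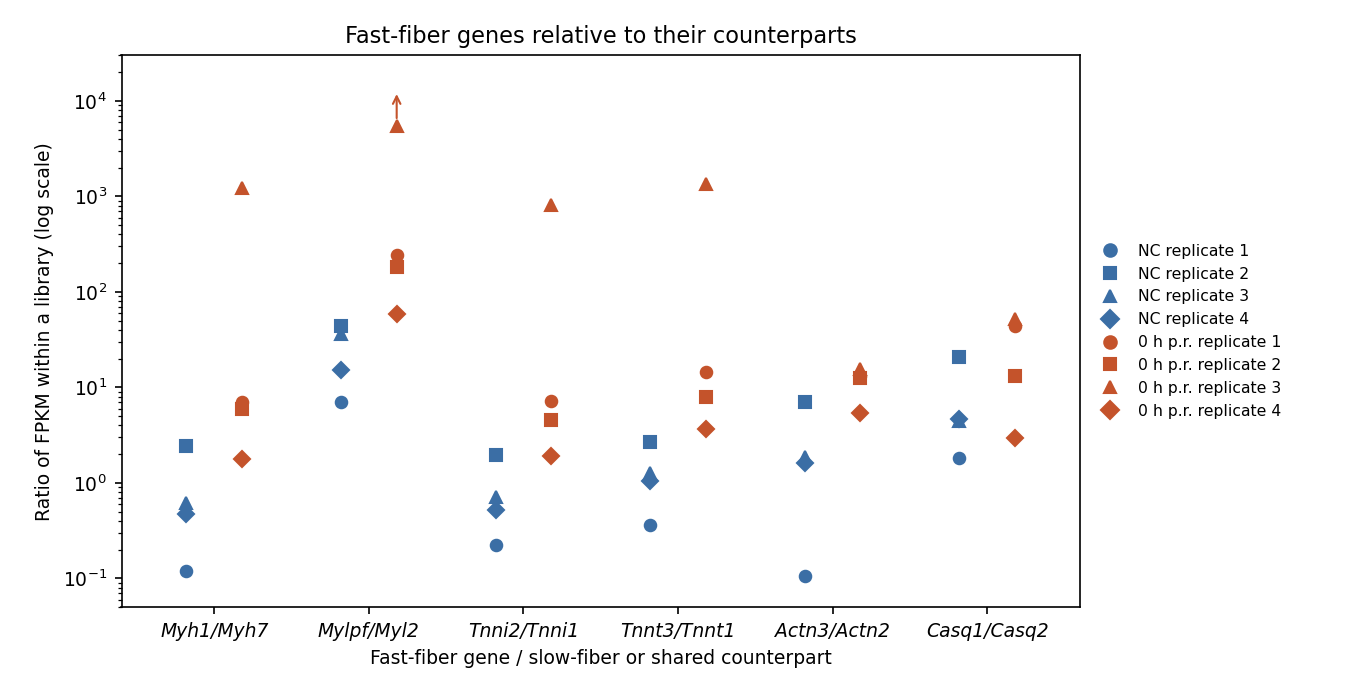
Ratio of the FPKM of a fast-fiber gene to that of its slow-fiber or shared counterpart within each library (log axis), for 4 NC (blue) and 4 0 h p.r. (orange) libraries; the arrow marks a lower bound, at 3 reads of Myl2. The orange points of Mylpf/Myl2 and Tnnt3/Tnnt1 all lie above the blue ones, and 0 h p.r. replicate 3 (triangle) stands far above the rest in the first 4 pairs.

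The ratios of 0 h p.r. replicate 3 to Tnnt1, Myh7, Tnni1 and Myl2 rested on low values of these slow-fiber genes. Tnnt1 was at 576, 328, 507 and 369.7 FPKM in NC and at 289, 93.0, 1.52 and 34.6 FPKM after the run, the third value being 19 reads. Myh7 was at 306, 61.1, 329 and 226 FPKM in NC and at 161, 39.8, 0.514 and 16 FPKM after the run, and Tnni1 was at 264, 127, 235 and 183 FPKM in NC and at 149.5, 41.2, 0.667 and 15.9 FPKM. In the library with the second highest fast-fiber levels these genes, and 2 more of the 12 tested (Myl3 and Csrp3), were thus at 39 reads or fewer, while the other 6, Myh7b, Casq2, Actn2, Tpm3, Atp2a2 and Fhl1, were at 103 to 8343 reads there. Without that library, the difference in log2 ratio was 2.80 for Tnnt3 to Tnnt1 and 2.65 for Mylpf to Myl2, the lowest of the 8 leave-outs for both.

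Of the 14 slow-fiber genes listed, 12 were tested, and the log2 change of all 12 was below 0, with a median of -1.97 against -0.0014 over all genes. The list holds Actn2, which all fibers share. None passed both thresholds (2.70% of all genes did), 8 had an unadjusted p under 0.05 (22.6% of all genes did), and 4 had groups that did not overlap (15.6% of all genes). Without 0 h p.r. replicate 1, 3 passed (Csrp3, Myl2 and Tpm3, lower, where 1.75% of all genes passed). Without 0 h p.r. replicate 4, 1 passed (Myh7b, lower, where 3.67% of all genes passed), and without any other single library none did. Myh7b also passed with voom (3.02% of all genes). The largest changes were -3.72 (SE 1.28, adjusted p = 0.124) for Myl3, a light chain of slow and heart muscle, and -3.54 (SE 1.26, adjusted p = 0.133) for Tnnt1. Each had its lowest level of the series in 0 h p.r. replicate 3, at 11 and 19 reads. Myh7b, a relative of Myh7, had a log2 change of -0.91, short of the fold threshold, with an adjusted p of 0.0388 in limma and of up to 0.117 when 1 library was left out. The summed level of the 12 was 1276 to 2629 FPKM in NC and 478 to 1655 FPKM after the run. An SD after the run of at least 2 times that at rest was found for 7 of the 12 (16.5% of all genes). The count was also 7 without 0 h p.r. replicate 4.

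Of the 22 other fast-fiber genes listed, 20 were tested, with 19 log2 changes above 0 and a median of 0.91. None passed both thresholds (2.70% of all genes did), 3 had an unadjusted p under 0.05 (22.6% of all genes did), 1 had groups that did not overlap (15.6% of all genes), and 13 had an SD after the run of at least 2 times that at rest (16.5% of all genes). Without 0 h p.r. replicate 4, 5 passed (Ampd1, Fbp2, Pfkm, Phka1 and Phkg1, higher, where 3.67% of all genes passed) and 6 had the wider spread, while without any other single library none passed. Fbp2, the fructose bisphosphatase of muscle, had the largest change, 1.94 (SE 0.60, adjusted p = 0.0928). It was the gene without overlap, at 0.0847 (2 reads), 1.52, 1.28 and 0.961 FPKM in NC and at 10.9, 2.65, 8.57 and 1.54 FPKM after the run. Mybpc2, the fast myosin-binding protein C, followed with 1.67 (SE 1.20, adjusted p = 0.468).

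A list of sarcomere and triad genes, meant as shared by all fibers, was split in direction. Not all of the list is shared or contractile: it holds Mb, Ckmt2 and Cox6a2 of energy use, the slow form Mybpc1, and Actc1. The log2 changes of these genes were all below 0, from -1.44 for Actc1 to -0.42 for Cox6a2, so the split is not one of shared genes alone. Of 29 listed, 25 were tested, 13 had a log2 change above 0 and 12 below, the median was 0.01, and 24 had an SD after the run of at least 2 times that at rest (16.5% of all genes), or 13 without 0 h p.r. replicate 4. None passed both thresholds (2.70% of all genes did), and Smpx did without 0 h p.r. replicate 1 (1.75% of all genes). Acta1, the actin of skeletal muscle, was at 2274, 2599, 2817 and 2092 FPKM in NC and at 12258, 1947, 5728 and 382 FPKM after the run. It had the same highest and lowest libraries as most members, and a log2 change of 0.15 (SE 0.91, adjusted p = 0.951). The largest changes of this list were those of Smpx, a small protein of striated muscle, at -1.93 (SE 0.64, adjusted p = 0.114) and of Actc1, the cardiac actin, at -1.44 (SE 0.93, adjusted p = 0.411).

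Divided by Acta1 in the same library, the members spread less between libraries than their levels did. The SD of the log2 value over the 8 libraries was 0.53 for the ratio and 1.58 for the level of Ckm, and 1.5 and 2.20 for Actn3, with the other 7 genes between these in their ratios. The ratio of Ckm to Acta1 was 0.211, 0.471, 0.378 and 0.336 in NC and 0.575, 0.635, 0.553 and 0.524 after the run. The ratio of Pygm was 0.0299, 0.0763, 0.0825 and 0.0689 in NC and 0.122, 0.172, 0.131 and 0.106 after the run. For these genes, and for Myh1 and Actn3, every run library was above every control in this ratio, while the other 5 members overlapped. The same held for 0.296% of all genes divided by Acta1 (0.433% had no overlap in either direction), and for 5 of the 20 other fast-fiber genes. This denominator was chosen after seeing the data, and the ratios were not tested.

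Genes of muscle precursors and of the nerve contact were counted next. Of 6 myogenic genes tested, 0 passed both thresholds, and the largest changes were those of Myog at -1.41 (SE 0.52, adjusted p = 0.149) and of Myod1 at 1.15 (SE 0.78, adjusted p = 0.439), which both drive the muscle program. Of 6 genes of the neuromuscular junction tested, 0 passed, where 2.70% of all genes did. The acetylcholine receptor subunits Chrna1 and Chrnd gave -1.0 (SE 0.28, adjusted p = 0.0727) and -0.62 (SE 0.62, adjusted p = 0.621) in limma. Chrna1 passed both thresholds when NC replicate 2 was left out, where 1.99% of all genes passed.

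Markers of other tissues were counted in the same fit. Of 11 adipocyte markers tested 7 were lower after the run (Adipoq, Lep, Cidec, Plin4, Retn, Lpl and Cfd), where 0.894% of all genes were called lower, with summed levels of 3271 to 6709 FPKM in NC and 1086 to 2413 FPKM in 0 h p.r. The calls of 6 of these 7 were lost with some library left out (highest adjusted p 0.0796 to 0.112), all but that of Retn (0.0375), and 6 were lost with the replicate number as a block, all but that of Plin4 (adjusted p = 0.0330). Of 8 bone, 6 cartilage, 7 endothelial and 12 tendon markers tested 0 passed both thresholds, where 2.70% of all genes did. The paper, which used a count model (DESeq2), reports Bglap and Acan as up-regulated at 0 h p.r. Here their log2 changes were 2.24 (SE 1.00, adjusted p = 0.226) and 2.06 (SE 0.65, adjusted p = 0.0998) in limma. All 8 bone and all 6 cartilage changes were above 0, and 6 and 4 of them had an unadjusted p under 0.05, against 1 each of the endothelial and tendon markers and 22.6% of all genes. Without NC replicate 4, 2 bone markers passed (Dmp1 and Mepe, where 2.46% of all genes passed), without 0 h p.r. replicate 3, 1 did (Alpl, 1.42% of all genes), and with voom 1 did (Phex, 3.02% of all genes). The summed levels were 306 to 470.2 FPKM in NC and 567 to 2183 FPKM in 0 h p.r. for bone, with Bglap at 0 reads in NC replicate 2, and 1169 to 1649 FPKM and 1709 to 4519 FPKM for cartilage, with Col10a1 at 0 reads in the same library. Of 8 smooth muscle and mural cell markers 1, Myocd, was higher (adjusted p of at most 0.0298 with a library left out), where 1.80% of all genes were called higher. Of 5 cardiac markers 1, Myh6, was lower, and its adjusted p reached 0.101 with a library left out and 0.117 with the block. The part of these differences in the levels of the fast-fiber genes was not tested.

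Across all genes tested, 77 outside the list (0.556%) followed the mean of the 9 members with a Pearson's r above 0.95 over the 8 libraries, and the lowest r of a member with that mean was 0.955. The 10 closest were AABR07005775.1, Myoz1, Pgam2, Mlf1, Eno3, Rabep2, Lsmem1, Ampd1, Dhrs7c and Mylk2, with r between 0.990 and 0.997. Among them Pgam2 and Eno3 are muscle forms of glycolytic enzymes, Myoz1 is a Z disc protein of fast fibers, Ampd1 is the muscle AMP deaminase and Mylk2 the kinase of the skeletal myosin light chain. AABR07005775.1, known by its contig name only, ranged from 177 to 5885 FPKM.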

How the data were processed

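RNA of 8 rat Achilles tendons was analysed, 4 NC and 4 0 h p.r., grouped by their titles. According to the study's methods and the submitters' processing notes, the authors aligned stranded reads to Rnor_6.0 with HISAT2 (2.1.0) and counted them with featureCounts (1.6.3). The authors deposited FPKM values per gene and library, and with them their DESeq2 (1.30.1) fold changes and p-values, which were not used. The values had also been scaled between libraries: the median ratio to the gene means was 0.973 to 0.979 in each library, whereas FPKM summed to 900138 in NC replicate 2 and to 554130 to 746030 in the others.

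The members and lists were chosen with earlier results of these data known. Genes with FPKM of at least 0.5 in at least 4 libraries were tested with limma (3.58.1, R 4.3.3; trend) on log2(FPKM + 0.5) with Benjamini-Hochberg adjustment over all of them, so that fold changes of low genes are understated. Whole reads were recovered from the FPKM steps for 100% of the genes (within 0.004 reads, widened in proportion to the count) and tested with voom. Ratios were compared by exact permutation over the 70 assignments of libraries. Scripts (Python 3.11.15) were tested on simulated data. Named were all members, their counterparts, called genes and the 2 largest changes of each muscle list (other lists by counts and called genes), and the 10 genes most like the members' mean. Alternatives were other pseudocounts, filters, scalings, array weights, a replicate block and left-out libraries. Same-numbered libraries of the groups did not deviate together (r of -0.14 to 0.07).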

Additional observations from a re-analysis of the deposited data

Results flagged for a closer look

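Among 120 groups of 4 values examined, of which about 1 in 20 is expected past the limit by chance, 2 (fewer than that share) held a library far from the others, and both were ratios of Actn3 in NC. In the log2 ratio of Actn3 to Mylpf, the gap between NC replicate 1 and the nearest control was 0.914 of the whole range of the group. In the log2 ratio of Actn3 to Acta1 it was 0.851 of the range, again through NC replicate 1, where Actn3 was at 0.00712 of Acta1 against 0.0713 to 0.107 in the other 3 controls.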

How the results depend on the processing

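The 0 of 9 members past both thresholds held under all alternatives but 1 and the median of their log2 changes was above 0 under all, between 0.23 and 1.94 with a library left out. Leaving out single libraries gave counts of 0 to 1 members past both thresholds, of 1 to 9 members with a wider spread after running, and of 0 to 4 ratio pairs past the threshold. The counts of 1, 1 and 4 in these ranges came from leaving out 0 h p.r. replicate 4. The log2 change of Casq1 ranged from -0.024 (without 0 h p.r. replicate 1) to 1.67 with a library left out. Leaving out 0 h p.r. replicates 1 and 4 together was chosen after seeing the data. Quantile scaling gave a median of 0.78, array weights 1.37 and voom 0.98. Replicate numbers did not pair the samples, and with the number as a replicate block 0 members and 0 ratio pairs passed (smallest exact p 0.125 over 16 sign flips). There were 4 libraries per group, and the members had SDs above 2 on the log2 scale after running. Their 95% intervals span more than 4 log2 units, and the part of sequencing depth in this was not tested. The cause of the dependence on 0 h p.r. replicate 4 was not tested.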

Other observations

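In NC replicate 1, where Actn3 had its lowest value, genes of the other fast-fiber list stood in different places. Pvalb, the parvalbumin that buffers calcium, was at 23.8 FPKM there and at 278 to 605 FPKM in the other 3 controls, and Mybpc2 was at 7.09 FPKM against 67.8 to 125 FPKM. Gpd1, a glycerol phosphate dehydrogenase, had its highest value of the 8 libraries there, 149 FPKM against 60.3 to 94.6 FPKM in the other controls. Its r with the mean of the members was 0.349, and 10 of the 11 adipocyte markers were also at their highest in that library. The slow-fiber genes Tnnt1 (576 FPKM) and Myl3 (533 FPKM) also had their highest values of the series in that library. So did Myl2, Tnni1, Tpm3, Atp2a2 and Actn2 of that list. Myh7, Csrp3 and Casq2 were highest in NC replicate 3 instead. Myh7b was highest in NC replicate 4, and Fhl1 in 0 h p.r. replicate 1. Pvalb and Gpd1 were chosen after their values were seen, and no test was made.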
